A study of Mus musculus with 2 samples.

Results

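The nuclear-encoded subunits of the respiratory chain and ATP synthase were taken by gene symbol: symbols beginning with Nduf followed by a, b, c, s or v and a digit, the 4 Sdh genes, and symbols beginning with Uqcr, Cox4 to Cox8 or Atp5. Of 83 matching symbols, 77 had at least 20 UMIs (unique molecular identifiers, each counted as 1 captured transcript) over both replicates, out of 17946 genes with 1 UMI or more. Named by symbol, they were 36 genes of complex I, 4 of complex II, 8 of complex III, 12 of complex IV and 17 of complex V. The 6 that fell short were tissue-restricted or low copies of other subunits: Cox4i2, Cox7b2 and Cox8b had 0 UMIs, Ndufa4l2 had 2, Cox6a2 had 3 and Cox6b2 had 11. The members nearest the minimum were Atp5s with 38 UMIs, Cox7a1 with 63 and Ndufb2 with 113.

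The cells were group 3 innate lymphoid cells (ILC3s), lymphocytes of the gut wall that make IL-22, sorted from the lamina propria of the small intestine of male C57BL/6 mice aged 18 months. Single-cell RNA was captured on the BD Rhapsody system, in which cells of several samples carry sample tags. The data used here form 1 group with 2 replicates, tag 6 of library 1 and tag 12 of library 2, so no young or gene-deficient animals enter any comparison. The labels give no genotype and do not say whether the replicates came from separate animals. SDs therefore describe how far apart the 2 replicates lay, and that distance may be technical. The main tests between cell groups set the replicate difference aside. Their p-values rest on the spread of group differences over the 2 replicates, estimated for each gene partly from the other genes. Neither measure is known to cover variation between animals.

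The respiratory chain passes electrons from NADH through complex I, or from succinate through complex II, to coenzyme Q, complex III, cytochrome c and complex IV, and the proton gradient built on the way drives complex V, the ATP synthase. Complexes I, III, IV and V are mosaics: a few core subunits are translated inside the mitochondrion from mitochondrial DNA, and all other subunits come from nuclear genes scattered over the chromosomes. Complex II is made from nuclear genes alone and is also the succinate dehydrogenase of the citric acid cycle.

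Kept for analysis were cells in which 300 genes or more were found and no more than 25% of UMIs were mitochondrial, 3337 in replicate 1 and 3840 in replicate 2, with 6939790 and 6810214 UMIs. They were divided by marker UMIs that belong to no respiratory chain gene. Cells with a UMI of Cd3d, Cd3e or Cd3g, parts of the T cell receptor complex, formed the CD3 group (1149 and 1117 cells). Among cells without one, Ncr1, the receptor NKp46, marked 608 and 438 cells, and Ccr6 or Cd4, markers of lymphoid tissue inducer-like ILC3s, marked 128 and 79 further cells. The remaining 1452 and 2206 cells had none of these UMIs, which at this depth does not show that they lacked the proteins. Median UMIs per cell were 1991 and 1769 in the CD3 group, 2045 and 1860 in the Ncr1 group, 1629 and 1670 in the Ccr6/Cd4 group, and 1725 and 1579 in the remaining cells.

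The labelled identity was checked against markers. Il7r, the IL-7 receptor chain of innate lymphoid and T cells, had a UMI in 84.8% to 94.3% of the cells of each group and replicate. Kit was found in 13.5% and 11.4% of CD3 cells and in 32.3% to 51.5% of the other groups. Trac, the T cell receptor alpha constant gene, was found in 62.6% and 57.3% of CD3 cells and in 4.79% to 16.5% of the others. The CD3 group of this ILC3 sort thus carried T cell transcripts. Epithelial markers summed to at most 9.72 CPM (counts per 1000000 UMIs) and erythroid markers to at most 1.36 in any group. The replicates stood apart in other markers: Col1a1, a fibroblast collagen, had a UMI in 15.8% to 19.5% of the cells of each group in replicate 1 and in at most 1.37% in replicate 2, and Igkc, an antibody light chain, in 34.4% to 37.5% against 2.53% to 5.25%. The libraries shared 10 cell labels.

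The member genes lie on 19 chromosomes, X included with 3 of them. RefSeq promoters (GRCm38.p6, 250 bases before to 50 after the start of transcription) were matched for 65 of the 77 members. NRF1 and the ETS factor GABPA are known as activators of respiratory chain genes, and YY1 as a factor that binds near many start sites, so their core letters were searched on both strands. The palindrome of NRF1, shown in capitals below, stood in 5 of the 65 members (7.69%), in 2.55% of 7572 genes tested for expression here and in 1.07% of all 27025 genes with a promoter. The YY1 letters AAGATGG stood in 11 members (16.9%), against 9.14% and 7.28%. The ETS letters CCGGAAG stood in 16 members (24.6%), against 22.2% and 9.93%. No other searched motif lay within the printed windows, and a match is a description of letters, not a bound site. Windows around the NRF1 letters, in capitals, are printed for 3 of the 5 members. In these the letters lay before the RefSeq start of transcription. GENCODE M21 places 14 bases of the Atp5k window, 16 of the Cox6a1 window and 9 of the Ndufa11 window in exons. On the minus strand its Atp5k gene begins at base 108434448, so nearly all of the Atp5k letters lie inside that gene. The windows run 5′ to 3′ on the gene's strand.
Atp5k, chr5:108434435-108434474, minus strand: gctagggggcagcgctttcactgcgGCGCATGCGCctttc
Cox6a1, chr5:115349106-115349145, minus strand: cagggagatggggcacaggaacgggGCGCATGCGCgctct
Ndufa11, chr17:56717677-56717716, plus strand: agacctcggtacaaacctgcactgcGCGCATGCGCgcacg
The other members with the NRF1 letters were Atp5g2 and Uqcrc1. None of these 5 genes passed the test in any comparison given here. Their replicates also differed in direction: Atp5k had 167 CPM in replicate 1 and 107 in replicate 2, and Cox6a1 had 433 and 458.

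As a block, the 77 subunits took about 1 in every 100 UMIs in every cell group. Per 10000 UMIs, CD3 cells held 116 in replicate 1 and 108 in replicate 2 (mean 112 ± 5.60, SD, n = 2). Ncr1 cells held 119 and 106 (113 ± 9.03), Ccr6/Cd4 cells 109 and 101 (105 ± 5.48) and the remaining cells 113 and 103 (108 ± 7.05). Within each replicate the Ccr6/Cd4 group was lowest. CD3 cells had 1.067 and 1.070 times its share, and Ncr1 cells 1.095 and 1.053 times. Across replicates the groups overlapped, as the Ccr6/Cd4 value of replicate 1 lay above the replicate 2 values of all other groups.

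The 13 mRNAs encoded in the mitochondrion separated the groups more. They took 922 and 877 of 10000 UMIs in CD3 cells, 872 and 816 in the remaining cells, 860 and 781 in Ncr1 cells and 738 and 689 in Ccr6/Cd4 cells. The order was the same in both replicates, and the Ccr6/Cd4 values lay below all others. For each nuclear subunit UMI there were 7.95 and 8.11 mitochondrial ones in CD3 cells, 7.71 and 7.92 in the remaining cells, 7.22 and 7.34 in Ncr1 cells and 6.78 and 6.82 in Ccr6/Cd4 cells. This ratio did not overlap between any of the 4 groups, although the CD3 and remaining cells came close to each other. As the mitochondrial share is also used as a limit on cell quality, a stricter filter (500 genes, 10% mitochondrial UMIs) narrows it by construction: the shares were then 8.01% and 7.76% in CD3 cells and 6.98% and 6.76% in Ccr6/Cd4 cells. Under that filter the mitochondrial UMIs per nuclear one were 6.96 and 7.11 in CD3 cells, 6.78 and 7.22 in the remaining cells, 6.46 and 6.83 in Ncr1 cells and 6.38 and 6.66 in Ccr6/Cd4 cells. Across replicates the ratio then overlapped between Ncr1 and Ccr6/Cd4 cells, and that of the remaining cells overlapped with both CD3 and Ncr1 cells. Within each replicate Ccr6/Cd4 cells stayed lowest and Ncr1 cells came next, while CD3 and remaining cells changed places.

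**Figure D1:**
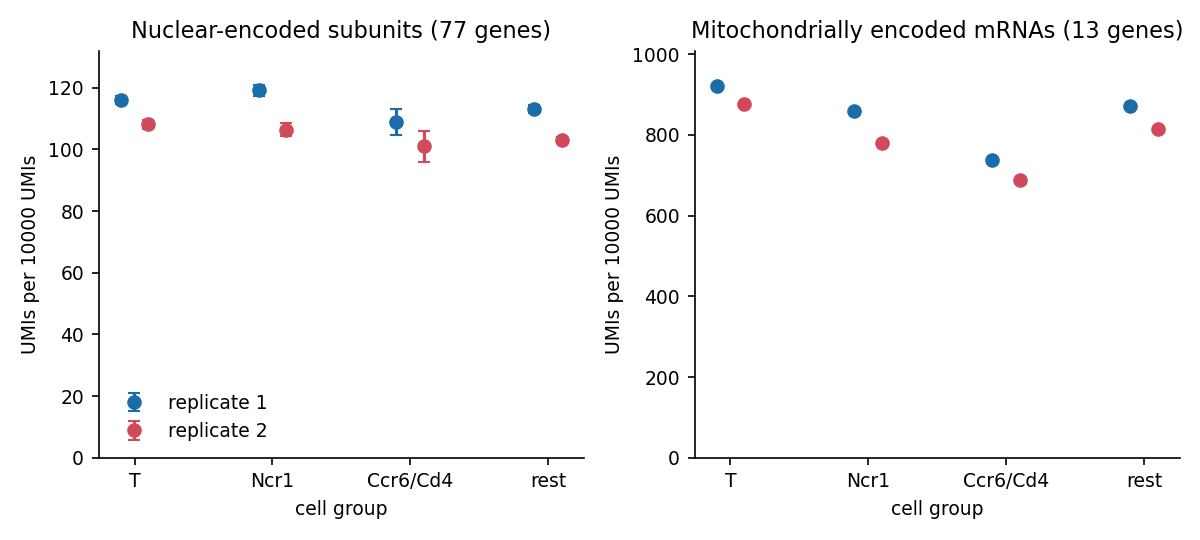
UMIs of the 77 nuclear-encoded subunits (left) and of the 13 mitochondrially encoded mRNAs (right) per 10000 UMIs in the 4 cell groups (T: cells with a CD3 UMI; rest: remaining cells), 1 point per replicate; bars on the left are exact 95% intervals for counting error only. The subunit shares lie between 101 and 119. They overlap between groups across replicates, although the Ccr6/Cd4 group is lowest within each replicate. The mitochondrial mRNAs are also lowest in the Ccr6/Cd4 group in both replicates.

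By complex, the nuclear share was largest for complex V and smallest for complex II. Complex V, with the rotor and catalytic head of the ATP synthase, took 37.2 and 34.5 of 10000 UMIs over all kept cells (exact 95% intervals 36.8 to 37.7 and 34.0 to 34.9, counting error only). Complex IV, cytochrome c oxidase, took 33.6 and 31.7, and complex I 30.6 and 25.9. Complex III took 10.96 and 10.50 and complex II 2.77 and 2.37. Each of the 5 was thus lower in replicate 2. The genes with most UMIs in each complex were Ndufa2, an accessory subunit of complex I (3990 UMIs), Sdha, the flavoprotein of complex II (1353), Uqcrh, the hinge protein of complex III (5450), Cox7c, a small subunit of complex IV (8522), and Atp5a1, the alpha subunit of the ATP synthase head (7065).

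The members differed between the replicates mostly in 1 direction. Over all kept cells, 64 of 77 had a lower CPM in replicate 2, with a median log2 ratio of replicate 2 over replicate 1 of -0.21. The median was -0.05 over the 5881 genes with at least 100 UMIs in each replicate, and the 73 members that met the same minimum had a median of -0.21. The 95% counting interval lay below 0 for 43 members and above 0 for 8: Atp5d, Atp5g3, Cox5a, Cox6a1, Cox7c, Ndufa2, Uqcrfs1 and Uqcrq. Complex I was lower in 33 of 36 genes (median -0.29) and complex II in 3 of 4 (-0.38), against medians of -0.09 for complex III, -0.11 for complex IV and -0.19 for complex V. With 1 sample on each side these are descriptions of 2 libraries.

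For each complex, the member with the largest difference among those with at least 100 UMIs in each replicate was as follows. Ndufv1, which carries the NADH-binding site of complex I, had 33.7 CPM in replicate 1 and 19.4 in replicate 2 (log2 ratio -0.80, 95% interval -1.12 to -0.49). Sdhb, the iron-sulfur subunit of complex II, had 35.6 and 24.2 (-0.55, -0.85 to -0.27), and Uqcr11, a small subunit of complex III, had 93.8 and 65.9 (-0.51, -0.69 to -0.33). Cox7a2 of complex IV had 129.5 and 91.5 (-0.50, -0.65 to -0.35), and Atp5k, the e subunit of the ATP synthase membrane part, had a log2 ratio of -0.65 (-0.78 to -0.51). All 5 were lower in replicate 2, as was Ndufa4, given here for its call between cell groups, with 201.7 and 132.7 CPM (-0.60, -0.73 to -0.48). Fibroblast and antibody transcripts also differed between the replicates, as given above. Without cells holding 2 or more UMIs of other cell types, the subunits took 117 against 108 of 10000 UMIs in CD3 cells, 123 against 106 in Ncr1 cells and 116 against 103 in the remaining cells. In Ccr6/Cd4 cells they took 103.4 against 103.0, from 109 against 101 with all cells. That removal did not count UMIs of antibody genes, Jchain included, so cells holding only those stayed in.

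**Figure D2:**
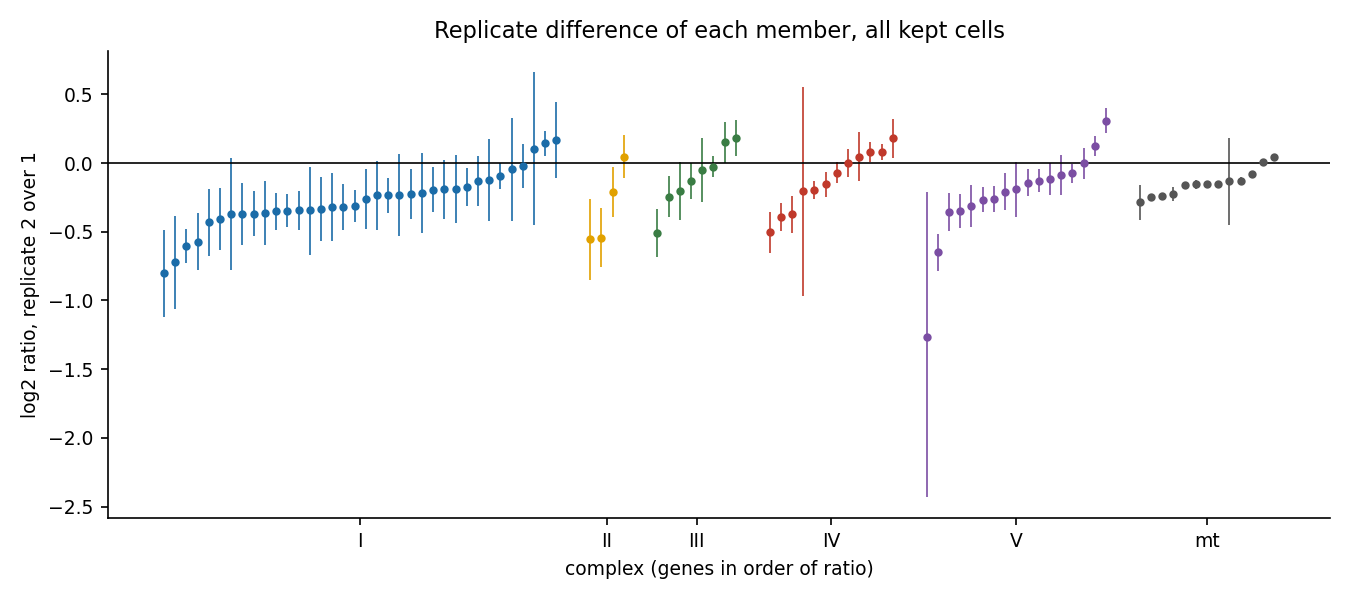
Log2 ratio of CPM in replicate 2 over replicate 1 for each of the 77 members, ordered by ratio within complexes I to V, and for the 13 mitochondrially encoded mRNAs (mt); bars are 95% intervals for counting error only. Most points lie below 0 (64 of 77 members), with complex I lower in 33 of 36 genes, and the longest bar at the left of complex V is Atp5s, with 38 UMIs.

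In the Cox4, Cox6a, Cox6b, Cox7b, Cox8 and Ndufa4 families, whose copies are encoded by different genes, the widely expressed copy held nearly all UMIs. Cox6a1 had 6121 UMIs and its heart and muscle copy Cox6a2 had 3. Cox6b1 had 3210 and the testis copy Cox6b2 had 11. Cox4i1, Cox8a and Cox7b held all UMIs of their families, since Cox4i2, Cox8b and Cox7b2 had none. A count of 0 allowed Cox4i2 a share of at most 0.17% in replicate 1 and 0.19% in replicate 2 of its pair (exact 95% limits, counting error only). Ndufa4 had 2304 UMIs against 2 of Ndufa4l2, a copy known to be induced in low oxygen.

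The Cox7a family was shared by Cox7a2l with 3275 UMIs, Cox7a2 with 1522 and the muscle copy Cox7a1 with 63. Cox7a2l is known for joining complexes III and IV into supercomplexes. It made up 63.9% of the family in replicate 1 (exact 95% interval 62.0% to 65.8%) and 71.3% in replicate 2 (69.4% to 73.2%). The 3 genes of the Atp5g family encode the identical mature c subunit of the ATP synthase rotor behind different import signals. Atp5g3 held 50.8% of the family's UMIs in replicate 1 and 57.1% in replicate 2, Atp5g2 33.1% and 28.5%, and Atp5g1 16.1% and 14.4%. Per kilobase of annotated exon the order was the same, with 200.5 and 218.6 CPM per kilobase for Atp5g3, 169.9 and 141.9 for Atp5g2 and 28.2 and 24.4 for Atp5g1, although capture of transcripts on Rhapsody beads need not scale with exon length.

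For comparisons between cell groups, UMIs were summed per replicate and group, and all 8 sums entered 1 edgeR quasi-likelihood fit with the replicate as a block. An adjusted p under 0.05 over all 9637 tested genes counted as passing. Of the 77 members 75 were tested. Atp5s and Cox7a1 fell under the filter on low counts. All log2 ratios below are edgeR estimates ± SE unless a replicate is named. The groups were made from the same samples. These p-values set a difference against its spread over 2 samples, which edgeR estimates for each gene partly from the other genes. A gene can therefore pass although its 2 replicates were uneven.

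Ncr1 cells and Ccr6/Cd4 cells stand for different kinds of ILC3 only as far as their UMIs mark them. Trac had a UMI in 9.05% and 4.79% of Ncr1 cells and in 5.47% and 16.5% of Ccr6/Cd4 cells. Between these groups, 1 member was higher in Ncr1 cells, 0 were lower and 74 did not pass. Over all genes 2.37% were called higher and 2.19% lower (4.56% in either direction), so 1 of 75 members was below the background. The one was Atp5g3. It had 469 and 560 CPM in Ncr1 cells and 315 and 422 in Ccr6/Cd4 cells, so both Ncr1 values lay above both Ccr6/Cd4 values (log2 ratio 0.59 ± 0.14, adjusted p = 0.013). The gene lies at chr2:73908447-73911326 on the minus strand (GRCm38). Its adjusted p was 0.070 with a stricter cell filter and 0.15 with Ccr6 alone defining the Ccr6/Cd4 group, and it passed under 11 of 14 alternatives.

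The median log2 ratio was 0.20 over the 75 members and 0.10 over all tested genes, and 55 members (73.3%) had a positive ratio against 56.3% of all genes. When cells were thinned to 1000 UMIs before the groups were assigned, the members' median was 0.03 and that of all genes 0.06. An unadjusted p under 0.05 was reached by 9 members, all with positive ratios, or 12% of the members against 15.9% of all genes. Cox5a, a nuclear subunit at the matrix face of complex IV, had 115 and 140.1 CPM in Ncr1 cells and 71.5 and 103.9 in Ccr6/Cd4 cells (0.66 ± 0.25, adjusted p = 0.16). Its Ccr6/Cd4 values rest on 17 and 16 UMIs. The median SE of a member in this comparison was 0.25, so that a difference of that size in a single gene would not be seen.

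Between CD3 cells and Ccr6/Cd4 cells, 4 members were higher in CD3 cells, 1 was lower and 70 did not pass. Over all genes 5.48% were called higher and 4.54% lower (10% in either direction), so that the higher members (5.33%) were about as frequent as the background. Cox7c had 692 and 739 CPM in CD3 cells and 450 and 526 in Ccr6/Cd4 cells (0.69 ± 0.13, adjusted p = 0.00075). Ndufa3, an accessory subunit of complex I, had 211 and 163 against 126 and 90.9 (0.88 ± 0.21, adjusted p = 0.0058). Ndufa4, named for complex I but known to sit in complex IV, had 214 and 147 against 143 and 84.4 (0.77 ± 0.21, adjusted p = 0.016). For Cox7c, Ndufa3 and Ndufa4 alike, both CD3 values exceeded both Ccr6/Cd4 values.

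Cox5a had 125 and 139 CPM in CD3 cells and, as above, 71.5 and 103.9 in Ccr6/Cd4 cells (0.75 ± 0.24, adjusted p = 0.047). It passed under 4 of 14 alternatives, and DESeq2 gave an adjusted p of 0.15. Sdha was the member that was lower in CD3 cells, with 81.2 and 70.9 CPM against 105 and 234 (-0.92 ± 0.25, adjusted p = 0.019). That value came mostly from replicate 2: replicate 1 alone gave a log2 ratio of -0.29 and replicate 2 alone one of -1.53, where 36 UMIs stood behind the Ccr6/Cd4 value, and with Ccr6 alone as the marker the ratio was -0.37 (adjusted p = 0.58). The 3 other Sdh genes did not pass, with ratios of -0.07 ± 0.41 for Sdhb, -0.07 ± 0.32 for Sdhc and 0.12 ± 0.29 for Sdhd, the membrane anchors being Sdhc and Sdhd.

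The median log2 ratio of the members was 0.23 against 0.10 for all genes, and 52 members (69.3%) were positive against 56.3% of all genes. An unadjusted p under 0.05 was reached by 20 members, 17 of them higher in CD3 cells, which was 26.7% of the members against 22% of all genes. The Ccr6/Cd4 group is shared between this comparison and that with Ncr1 cells, so the same low values of Cox5a, Ndufa3 and Ndufa4 enter both. Transcripts of the stress and dissociation list, among them Fos, Jun and Hspa1a, were highest in Ccr6/Cd4 cells, with 15470 and 10789 CPM in sum against 9585 and 6641 in CD3 cells and 9162 and 8340 in Ncr1 cells. All 9 genes of that list were found in every group, and its part in these differences was not tested.

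Markers of stromal and B lineage cells were unequal over the same groups. The 7 stromal markers summed in replicate 1 to 752 CPM in Ccr6/Cd4 cells, 4119 in Ncr1 cells and 4524 in CD3 cells, and in replicate 2 to 182, 154 and 205, with 4 of them at 0 in Ccr6/Cd4 cells of replicate 2. The 8 B cell or plasma cell markers summed in replicate 1 to 2531, 7361 and 4260 CPM in the same order, and in replicate 2 to 58.5, 6363 and 323, with 4 of them at 0 in Ccr6/Cd4 cells of each replicate. As an alternative, cells holding 2 or more UMIs of other cell types were left out. Antibody genes such as Igkc, and Jchain, were not counted for this, so cells holding only those stayed in. The share of all genes called without the removed cells is not given here. Without them, 1 member passed in Ncr1 over Ccr6/Cd4, 4 in CD3 over Ccr6/Cd4 and 4 in CD3 over Ncr1, where 2 passed with all cells. Atp5g3, Cox7c, Ndufa3, Ndufa4, Sdha, Cox6c and Cox7a2l passed there as with all cells, and Cox5a in CD3 over Ccr6/Cd4 did not (0.61 ± 0.28, adjusted p = 0.18).

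Between CD3 cells and Ncr1 cells, with larger groups and a median SE of 0.14, 1 member was higher in CD3 cells, 1 was lower and 73 did not pass. Over all genes 5.94% were higher and 5.64% lower (11.6% in either direction), so both counts (1.33% of the members each) were below the background. Cox7a2l had 289 and 264 CPM in CD3 cells and 206 and 201 in Ncr1 cells, with no overlap (0.48 ± 0.13, adjusted p = 0.014). DESeq2 gave an adjusted p of 0.066, and thinning every cell to 1000 UMIs before the groups were assigned gave a ratio of 0.20 (adjusted p = 0.55). Cox6c, a small subunit of complex IV, had 495 and 449 CPM in CD3 cells and 714 and 616 in Ncr1 cells (-0.46 ± 0.11, adjusted p = 0.0061). Its levels in CD3 cells were below those of every other group in both replicates, the others lying between 513 and 736 CPM.

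The 2 called genes moved in opposite directions within complex IV. The members' median was 0.05 against 0.02 for all genes, and 43 of 75 (57.3%) were positive against 51.5% of all genes. An unadjusted p under 0.05 was reached by 11 members, 5 higher and 6 lower, or 14.7% against 22.4% of all genes. Sdha had 81.2 and 70.9 CPM in CD3 cells and 103 and 110.2 in Ncr1 cells (-0.44 ± 0.17, adjusted p = 0.11), and Cox5a did not pass (0.09 ± 0.13, adjusted p = 0.78).

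Between the remaining cells and Ncr1 cells, edgeR called 0 members, as did DESeq2. An unadjusted p under 0.05 was reached by 3, 1 higher and 2 lower in the remaining cells, or 4% against 7.94% of all genes. Over all genes 1.01% were called higher and 0.083% lower (1.09% in either direction). The median of the members was -0.07 against 0.01 for all genes, and 27 of 75 (36%) were positive against 52.3% of all genes. The largest difference in p was that of Ndufa10, an accessory subunit of complex I, at -0.43 ± 0.14 (adjusted p = 0.21).

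**Figure D3:**
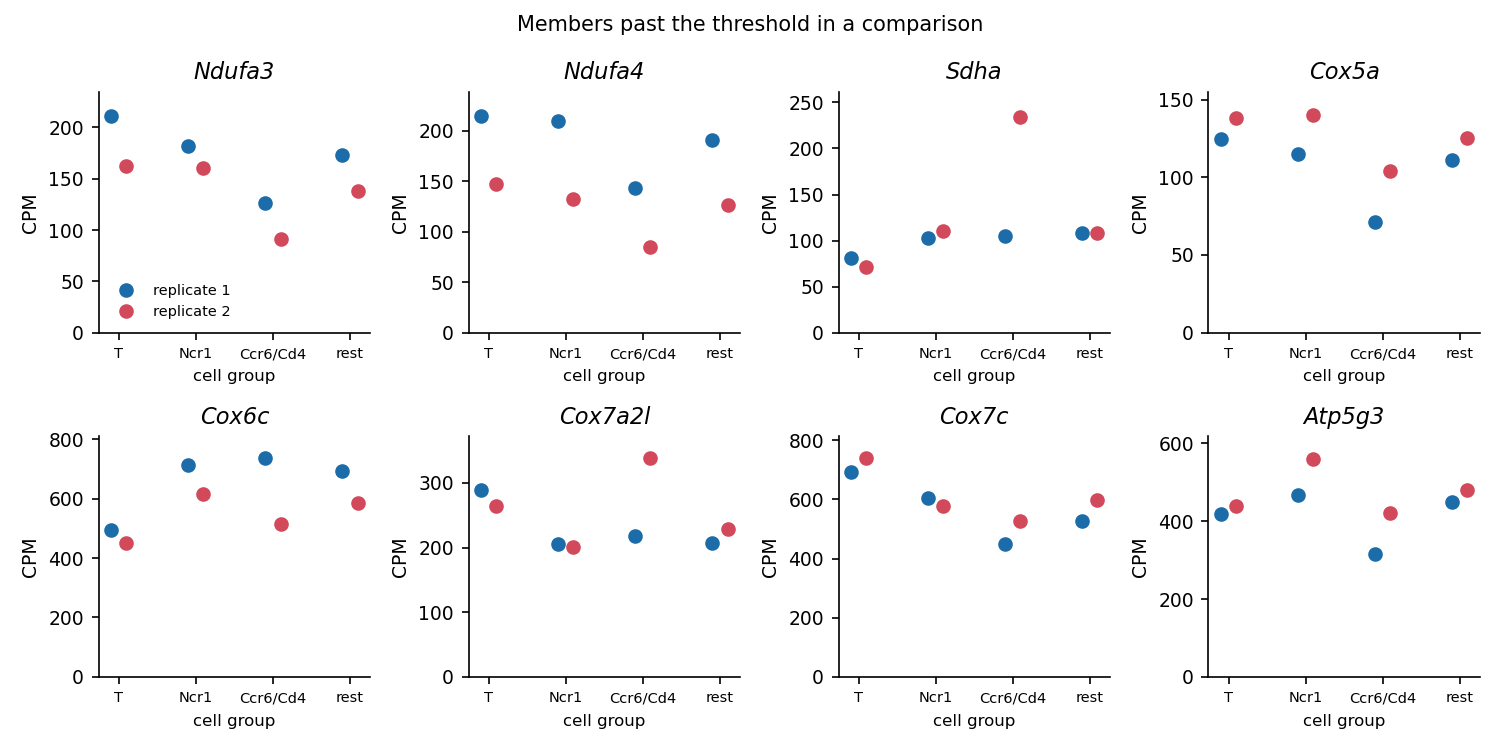
CPM per cell group (T: cells with a CD3 UMI; rest: remaining cells) and replicate for the 8 members that passed the test in at least 1 comparison, with axes from 0. Cox6c is lowest in CD3 cells and Ndufa3 and Ndufa4 are lowest in Ccr6/Cd4 cells in both replicates, while the Ccr6/Cd4 value of Sdha differs between replicates (105 and 234 CPM).

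The mitochondrially encoded mRNAs, tested in the same fit, gave more calls than their nuclear partners. Of 13, 10 were higher in CD3 cells than in Ccr6/Cd4 cells and 0 lower, with a median log2 ratio of 0.43. The 3 that did not pass were mt-Nd4l (0.30), mt-Nd6 (0.52) and mt-Atp8 (0.43). mt-Co2, the copper-carrying subunit that takes electrons from cytochrome c, had 13335 and 12837 CPM in CD3 cells, 11704 and 10917 in Ncr1 cells and 9694 and 9490 in Ccr6/Cd4 cells, with no overlap between the 3 groups. mt-Co1, which holds the oxygen-reducing site of complex IV, had 25881 and 25942 in CD3 cells against 19721 and 19643 in Ccr6/Cd4 cells (0.53 ± 0.06).

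Ncr1 cells exceeded Ccr6/Cd4 cells in 4 of the 13, mt-Co1 (0.39 ± 0.06), mt-Co2 (0.33 ± 0.07), mt-Nd5 (0.47 ± 0.09) and mt-Atp6 (0.31 ± 0.07), with a median of 0.26 over the 13. CD3 cells exceeded Ncr1 cells in 5, mt-Nd3 (0.39 ± 0.09), mt-Nd1 (0.30 ± 0.07), mt-Co3 (0.26 ± 0.08), mt-Co2 (0.25 ± 0.06) and mt-Atp6 (0.22 ± 0.07), with a median of 0.13. In the remaining cells against Ncr1 cells edgeR and DESeq2 called 0 of 13, and 0 reached an unadjusted p under 0.05. The SE of these abundant mRNAs was small, with medians near 0.08, against 0.25 for members in comparisons with Ccr6/Cd4 cells, so a count of calls is not a like measure for the nuclear and mitochondrial sets. With that stricter filter, which cuts the measured quantity itself, the 10 calls between CD3 and Ccr6/Cd4 cells became 3 and the 5 between CD3 and Ncr1 cells became 1.

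**Figure D4:**
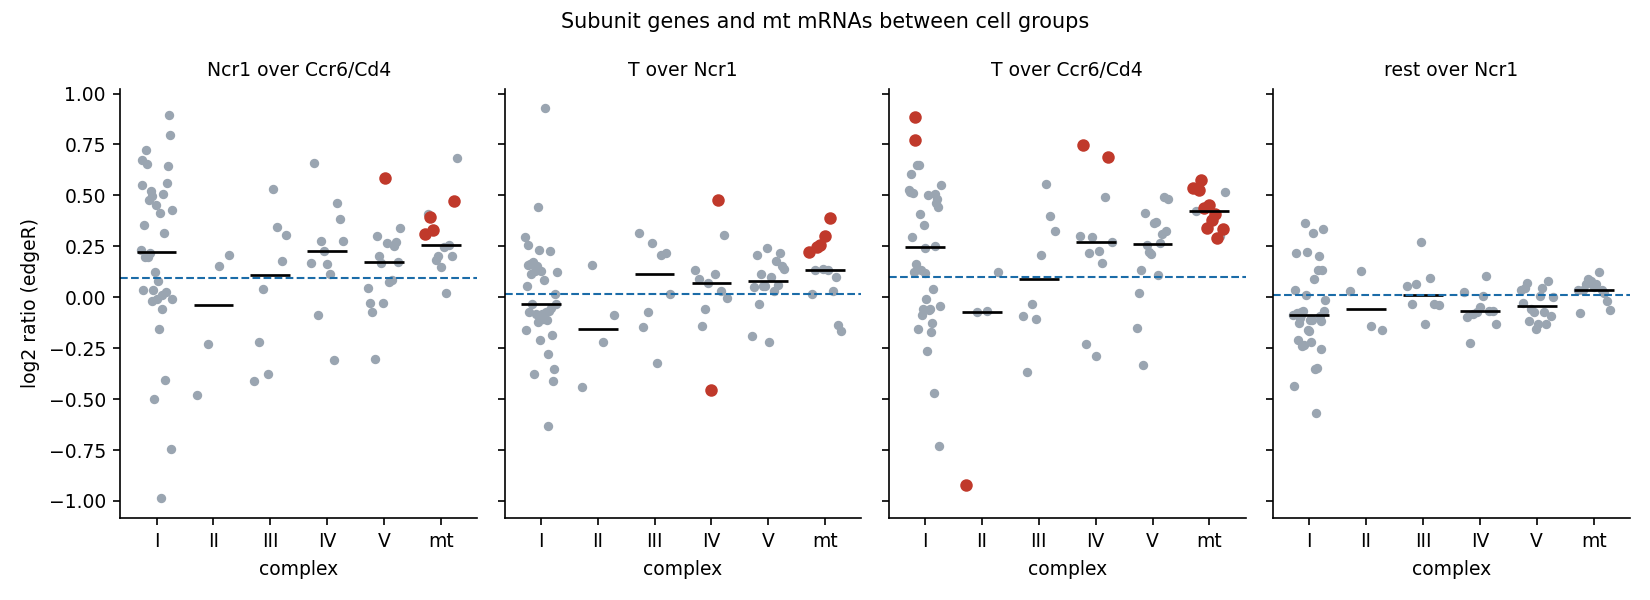
edgeR log2 ratios of the 75 tested members by complex (I to V) and of the 13 mitochondrially encoded mRNAs (mt) in the 4 comparisons; red points passed an adjusted p of 0.05, black lines are medians and the dashed line is the median of all tested genes. The mt points lie above 0 in both comparisons with Ccr6/Cd4 cells (medians 0.26 and 0.43), while members scatter on both sides of 0.

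Between CD3 and Ccr6/Cd4 cells, the nuclear and mitochondrial parts of a complex differed by unequal factors. In complex IV, CD3 cells had 1.32 times the mitochondrial UMI share of Ccr6/Cd4 cells in each replicate, and 1.05 and 1.15 times the nuclear share. In complex V the factors were 1.32 and 1.33 for mt-Atp6 and mt-Atp8 together and 1.03 and 1.05 for the nuclear genes. In complex I they were 1.16 and 1.21 against 1.15 and 1.09, and in complex III, where mt-Cytb is the mitochondrial part, 1.13 and 1.19 against 1.07 and 1.07. In this comparison the nuclear factor was below the mitochondrial one in both replicates of each of these 4 complexes. Complex II, with no mitochondrial gene, went the other way, with factors of 0.87 and 0.55, the latter carried by Sdha. For Ncr1 over Ccr6/Cd4 cells the order was not the same in every complex. The nuclear factors were below the mitochondrial ones in complex IV (1.082 and 1.121 against 1.22 and 1.18) and complex V (1.082 and 1.013 against 1.17 and 1.16). In complex I they were slightly above them (1.17 and 1.085 against 1.11 and 1.078), and in complex III the replicates differed in order (1.017 and 1.061 against 1.098 and 1.058).

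Genes around the chain were taken as 7 lists, namely 77 mitochondrial ribosomal proteins (74 tested), 48 assembly factors (38), 17 citric acid cycle and pyruvate dehydrogenase genes (17), 6 carriers and channels (6), 11 genes of mitochondrial DNA expression (9), 9 transcriptional regulators (8) and 4 chain parts outside the symbol rule (4). In CD3 against Ncr1 cells, 2 ribosomal proteins were higher, Mrpl33 (0.50 ± 0.15) and Mrpl54 (0.87 ± 0.28), as were Cox10, which makes heme for complex IV (1.04 ± 0.21, adjusted p = 0.0013), and Slc25a4, an ADP/ATP carrier (0.83 ± 0.20, adjusted p = 0.0063). Sdhaf1, an assembly factor of complex II, was lower (-0.52 ± 0.14), as were the citric acid cycle genes Suclg1 (-0.73 ± 0.18) and Idh3g (-0.51 ± 0.16). Against 11.6% of all genes, these calls were 11.8% of the tested citric acid cycle genes, 16.7% of the carriers, 5.26% of the assembly factors and 2.70% of the ribosomal proteins.

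In CD3 against Ccr6/Cd4 cells, Mrps5 (1.16 ± 0.36), Mrpl21 and Slc25a5, another ADP/ATP carrier (0.48 ± 0.15), were higher and Sdhaf1 was lower (-1.01 ± 0.20, adjusted p = 0.0012). Mrpl21 had 64 and 37 UMIs in CD3 cells and 0 and 1 in Ccr6/Cd4 cells, too few for a fold. The calls were 16.7% of the carriers, 2.63% of the assembly factors and 2.70% of the ribosomal proteins, against 10% of all genes. In Ncr1 against Ccr6/Cd4 cells 1 gene of these lists passed, Idh2 of the citric acid cycle (adjusted p = 0.0097), which was lower in Ncr1 cells with 3 and 0 UMIs against 9 and 1. It was 5.88% of the 17 citric acid cycle genes, against 4.56% of all genes. In the remaining cells against Ncr1 cells edgeR called 0 of them. Genes of mitochondrial DNA expression, regulators and the 4 other chain parts gave 0 calls in the 4 comparisons. The medians of the ribosomal proteins were 0.28 in Ncr1 over Ccr6/Cd4, 0.06 in CD3 over Ncr1, 0.49 in CD3 over Ccr6/Cd4 and -0.07 in the remaining cells over Ncr1, against 0.10, 0.02, 0.10 and 0.01 for all genes. Their quartiles were -0.10 and 0.80 in the first and -0.09 and 0.92 in the third of these comparisons. In the same order, 6.76%, 8.11%, 10.8% and 2.70% of them had an unadjusted p under 0.05, against 15.9%, 22.4%, 22.0% and 7.94% of all genes.

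Subunit UMIs varied between single cells somewhat more than pure counting would give. After every cell was thinned to 1000 UMIs, leaving out 186 cells of replicate 1 and 313 of replicate 2 that had fewer, the median was 10 to 12 subunit UMIs per cell in each group and replicate. The variance was 1.17 to 1.42 times the mean in 7 of the 8 sets of cells, where pure counting would give about 1, and 2.14 times in Ccr6/Cd4 cells of replicate 1 (119 cells), which was 1.42 in replicate 2 (74 cells). For the mitochondrial mRNAs it was 4.38 to 8.41 times. This measure can rise with the mean, which was 10.3 to 12.0 subunit UMIs and 69.2 to 94.4 mitochondrial UMIs per cell. The 2 ranges thus do not compare how much the sets varied. At most 0.24% of the cells in any set had 0 subunit UMIs. Across cells, subunit and mitochondrial UMIs had a Pearson correlation between -0.12 and 0.07 in the 8 sets of 74 to 1970 cells, a description of thinned counts that share a fixed total.

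**Figure D5:**
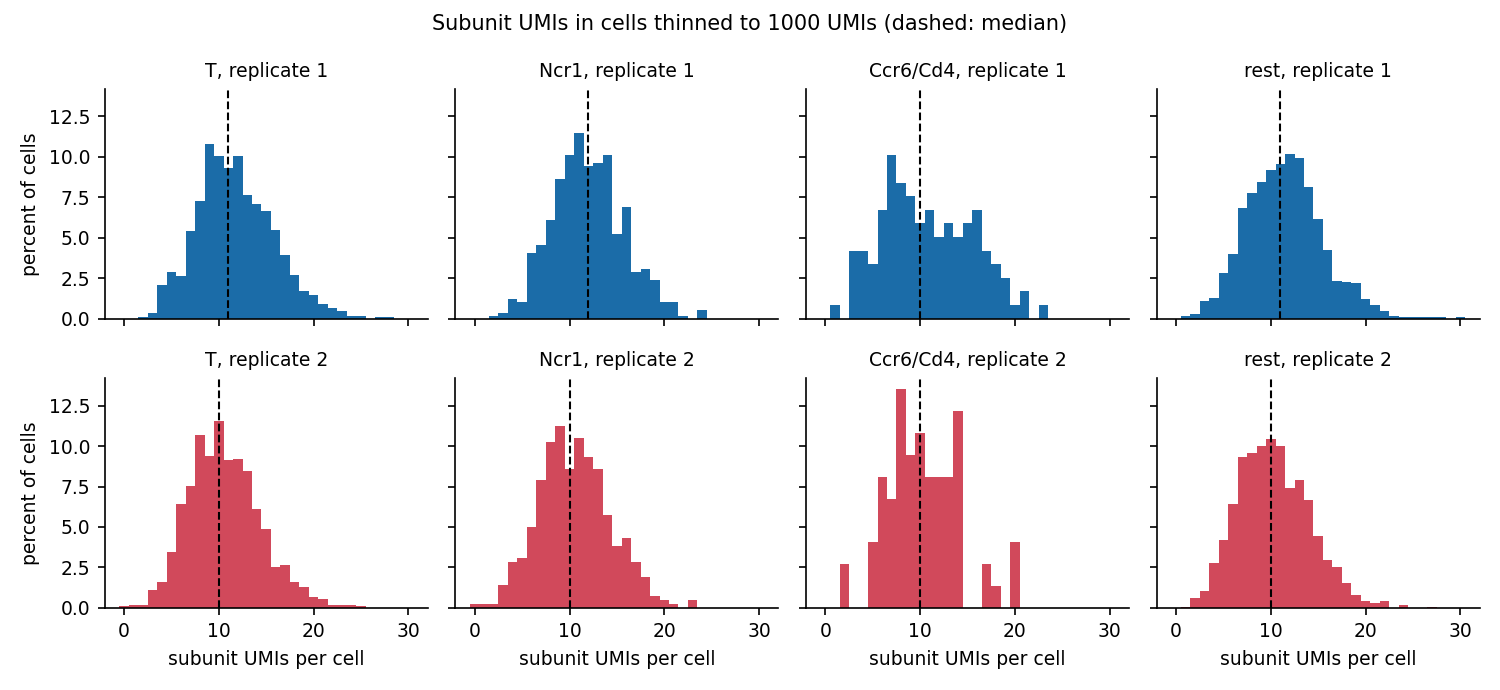
Share of cells (percent) by number of subunit UMIs after thinning to 1000 UMIs per cell, for each cell group (T: cells with a CD3 UMI; rest: remaining cells) and replicate; dashed lines are medians. Medians are 10 to 12 in all 8 panels, and the Ccr6/Cd4 panel of replicate 1 is the widest.

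Within the Ccr6/Cd4 group, cells with a Ccr6 UMI alone (64 and 28 cells) held 107 and 105 subunit UMIs per 10000, and those with a Cd4 UMI alone (49 and 44 cells) held 109.9 and 99.9. The order differed between the replicates. Cells with both (15 and 7) held 110.2 and 95.8. Cycling markers summed to 33.6 and 182 CPM in the Ccr6/Cd4 group and to 155 and 171 in Ncr1 cells. As an alternative, cycling cells were left out. The mean subunit share was then 103.8 ± 5.37 per 10000 UMIs in Ccr6/Cd4 cells and 111.5 ± 9.44 in Ncr1 cells. The members' median log2 ratio in Ncr1 over Ccr6/Cd4 was 0.19 without these cells and 0.20 with all cells.

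Exons of 27 members overlap those of another annotated gene, 5 of them on the same strand, and without a stated strand setting in the sources used here such reads cannot be assigned with certainty. Among the called members these are Cox5a (chr9:57521274-57532426, with Gm26631), Cox6c (chr15:35925886-35938246, with Vps13b) and Ndufa3 (chr7:3617373-3620327, with Tfpt), all on opposite strands. Atp5c1, Atp5k, Atp5l and Uqcrh have 6 named pseudogenes that could share reads with them.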

How the data were processed

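The authors deposited UMI counts per cell and gene, unnormalised, from version 1.8 of the BD WTA Multiplex Rhapsody pipeline on GRCm38 with GENCODE M19, per the file headers. HISAT2 2.0.5, Bowtie2, mm10 and GRCm38.p6 are in the submitters' processing notes. Cells were taken by the pipeline's sample tag calls, 3427 and 3954 in all, of which 97.4% and 97.1% were kept. Tag multiplets (572 and 987) were left out, and no doublet caller was run. Instead, the 5% of cells with most UMIs were left out as an alternative.

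UMI sums per replicate and cell group were tested with edgeR 4.0.16 in R 4.3.3 (TMM scaling, filterByExpr, replicate block, 3 residual degrees of freedom, common dispersion 0.0067). P-values were adjusted by Benjamini-Hochberg over all tested genes except the 6 that define the groups. The replicate numbers pair the groups because groups of the same number are cells of the same sample. SEs were derived from each log2 ratio and its F statistic. Single-replicate ratios are differences of log2 CPM, and CPM were computed from each sum without TMM. The fit was also run on simulated data in which all genes had the same dispersion and group differences were equal in both replicates. That run therefore cannot show how calls behave where the replicates differ. Gene positions are from GENCODE M21.

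Members, lists and comparisons were chosen with earlier results of these data known. Genes were named by rule: members past the threshold in order of p, Cox5a, the Sdh genes, isoform families, the genes with most UMIs and with the largest replicate difference per complex, those near the UMI minimum, mitochondrial mRNAs, and up to 3 genes a list by p. Ndufa10, the promoter genes and Ndufa4 between replicates were named after their values were seen. Intervals cover counting error only. Alternatives were another method (DESeq2 1.42.0), other scalings (TMMwsp, no mitochondrial genes), filters, thinning, group definitions, and leaving out cells or a replicate.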

Additional observations from a re-analysis of the deposited data

How the results depend on the processing

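The 28 gene ratios recomputed under the alternatives (those of the called members, the called mitochondrial mRNAs and Cox5a) had 0 changes of sign. Sdhc in CD3 over Ccr6/Cd4, which did not pass, was -0.23 in replicate 1 and 0.20 in replicate 2. Without the replicate block, edgeR's common dispersion was 0.10, 0 members passed in each comparison (from 1, 2 and 5, with 0 in the remaining cells over Ncr1 cells), and of the mitochondrial mRNAs 0, 0 and 1 passed in Ncr1 over Ccr6/Cd4, CD3 over Ncr1 and CD3 over Ccr6/Cd4. With a stricter cell filter (500 genes, 10% mitochondrial UMIs) 0 and 1 members passed in Ncr1 over Ccr6/Cd4 and CD3 over Ncr1, and 1 and 3 mitochondrial mRNAs in CD3 over Ncr1 and over Ccr6/Cd4. Without the 5% of cells with most UMIs more passed: 3, 4 and 10 members in Ncr1 over Ccr6/Cd4, CD3 over Ncr1 and CD3 over Ccr6/Cd4, and 7 mitochondrial mRNAs in the first. In CD3 over Ncr1, 1 member passed with DESeq2, 6 when CD3 cells needed 2 UMIs and 4 without cells of other types, and 3 mitochondrial mRNAs passed with no filter on low counts and 1 with Ccr6 alone. In Ncr1 over Ccr6/Cd4, 2 members passed with Ccr6 alone, and in CD3 over Ccr6/Cd4, 3 after thinning before assignment. The share of all genes called under these alternatives is not given here. The counts therefore do not show whether members moved apart from the background. The cause of these shifts was not tested. With DESeq2 the median of all genes in CD3 over Ccr6/Cd4 was -0.03, from 0.10, and that of the members 0.19, from 0.23. DESeq2 was run without the filter on low counts, so it held 77 members rather than 75. With edgeR and no such filter the medians were 0.28 and 0.30. Scaling, gene set and method changed together, so their parts cannot be told apart. Leaving out a replicate gives no test and left the subunit share at 108 to 116 per 10000 in CD3 cells, 106 to 119 in Ncr1, 101 to 109 in Ccr6/Cd4 and 103 to 113 in the remaining cells. Depth limits the Ccr6/Cd4 group most, with 237874 and 153949 UMIs.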
